A study of Rattus norvegicus with 71 samples.

Results

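The PND2 brains of 9 offspring of dams immunized with LDHA/B+CRMP1+STIP1 were compared directly with those of 8 offspring of dams immunized with STIP1+NSE. The 17 animals were chosen by their autoantibody label among the 43 libraries titled MAR_C3, out of 71 libraries in the whole series, and no control entered the contrast. All were wild-type Sprague-Dawley pups whose dams had received repeated injections of synthetic peptides in Freund's adjuvant before pregnancy, so STIP1 peptides and adjuvant were common to both groups. Only the first group's dams received LDHA, LDHB and CRMP1 peptides, and only the second group's dams received NSE peptides. The comparison therefore asks how the offspring brain differs between a pattern that adds LDHA/B and CRMP1 to STIP1 and a pattern that adds NSE. The LDHA/B+CRMP1+STIP1 animals, 4 males and 5 females, came from 5 litters (dams 9_4, 9_9, 9_14, 9_19 and 9_24), and the STIP1+NSE animals, 4 males and 4 females, from 4 litters (dams 9_2, 9_7, 9_12 and 9_17). Each litter gave a male and a female, except that dam 9_24 gave a female alone. The 12 MAR_C3 control animals, from 4 litters of dams injected with saline and adjuvant, are given below for their levels only. The antibody was raised in the dam, and how much of it reached each pup was not analysed here.

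In maternal autoantibody related (MAR) autism, IgG of the mother that recognizes proteins of the fetal brain crosses the placenta through the neonatal Fc receptor during gestation. The targets studied here are cytoplasmic proteins with well known roles. STIP1 is the co-chaperone that hands client proteins from HSP70 to HSP90. LDHA and LDHB are the subunits of lactate dehydrogenase, which interconverts pyruvate and lactate. CRMP1 and CRMP2 (gene Dpysl2) couple semaphorin signals to microtubules in growing axons. NSE is the neuronal enolase (gene Eno2), a glycolytic enzyme, and GDA is guanine deaminase, an enzyme of purine breakdown that also binds tubulin in dendrites. An antibody against a protein need not change the messenger RNA that encodes it, and the measurement here is of messenger RNA.

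Each library came from 1 coronal slice about 150 um thick that held hippocampus with cortical and subcortical structures, so a change of cell makeup and a change of RNA per cell cannot be told apart. That is how the sample labels and the methods give the tissue, whereas the design text of the series gives regions with frontal cortex and hypothalamus, and the levels of regional markers below are subject to this difference. Assigned counts ran from 24880182 to 35141768 (median 29181468) in LDHA/B+CRMP1+STIP1 and from 25818198 to 30523869 (median 27344963.5) in STIP1+NSE. The Y-linked gene Eif2s3y, at 49.0 to 87.2 CPM (reads of a gene relative to all counted reads of its library, on the usual counts-per-million-reads scale) in males and at most 0.297 CPM in females, matched every sex label. Genes of cortex and hippocampus were abundant in every slice, with a summed level of 2003 to 3288 CPM over the 18 tested markers. Some libraries stood apart in markers of neighbouring structures. Hox genes of the hindbrain, which forebrain tissue lacks, summed to 163 and 48.8 CPM in the female and male of dam 9_14, 24.6 CPM in the female of dam 9_9 and 23.4 CPM in the STIP1+NSE male of dam 9_7, against at most 2.02 CPM in the other 13 animals and 8.31 CPM in controls. Pineal genes were high in the STIP1+NSE males of dams 9_7 and 9_12. Markers of thalamus were lowest in both pups of dam 9_4 and in the female of dam 9_2. Results for the Hox and pineal genes are given below with and without the animals in which they were high. No fit left out all the animals low in thalamic markers together, only 1 litter at a time.

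No gene differed between the 2 exposures after correction. Of 17494 genes in the table, 12540 were tested with edgeR's quasi-likelihood test with sex as a covariate, and 0 (0% of genes tested) passed FDR < 0.1. The smallest Benjamini-Hochberg adjusted p was 0.960. At an unadjusted p under 0.05 there were 481 genes (3.84% of those tested), of which 303 (2.42%) were higher in LDHA/B+CRMP1+STIP1 and 178 (1.42%) higher in STIP1+NSE. That share is below the 5% expected at this threshold with no difference in any gene. DESeq2 with the same covariate gave 533 genes (4.25%) at that threshold and 0 after adjustment. The median log2 fold change over all genes, taken as LDHA/B+CRMP1+STIP1 over STIP1+NSE here and throughout, was 0.00 (-0.001), and 53 genes had a fitted change beyond 1 on the log2 scale in either direction. For 0 genes (0%) did all animals of the first group lie above, or all below, all animals of the second. The 95% interval of a gene's log2 fold change had a median half-width of 0.20, which was 0.15 for the 6068 genes over 5 on the log2 CPM scale and 0.56 for the 1932 genes under 2.

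**Figure D1:**
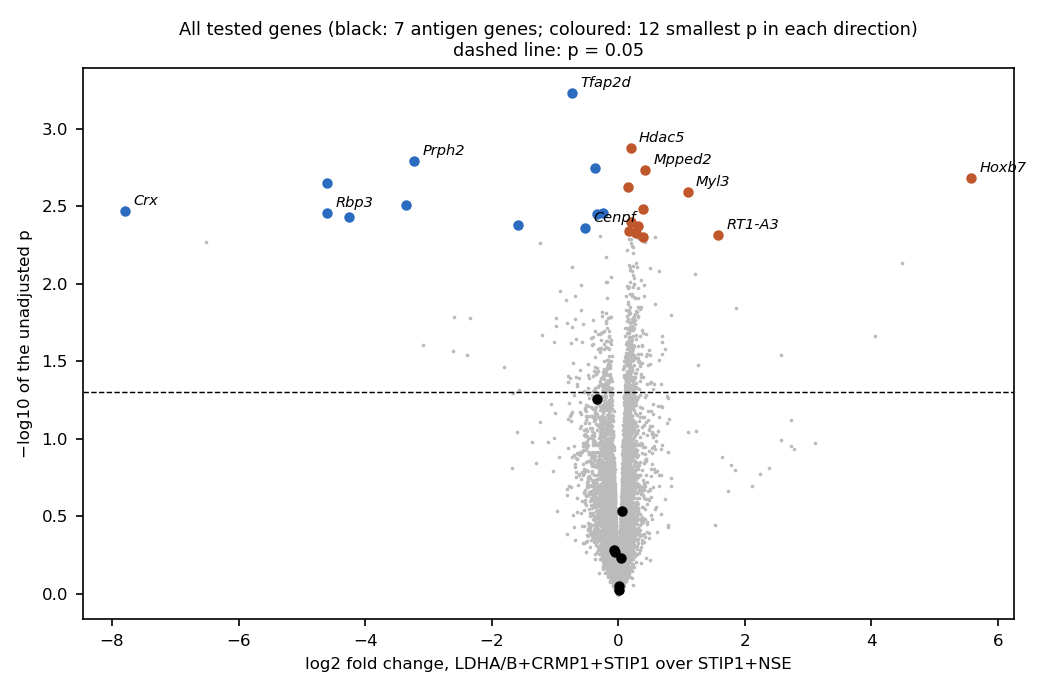
Log2 fold change (LDHA/B+CRMP1+STIP1 over STIP1+NSE, x axis) against −log10 of the unadjusted edgeR p (y axis) for 12540 genes. The 7 antigen genes (black) lie near the middle, all under the dashed line at p = 0.05, and the coloured genes are the 12 with the smallest p in each direction; fitted values at the far left and right belong to genes with counts of 0 in most animals and are not bounds.

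The genes of the injected antigens did not separate the groups. Of the 7 antigen genes, 4 had higher and 3 lower fitted levels in LDHA/B+CRMP1+STIP1, 0 of 7 passed an unadjusted p under 0.05 (background 3.84%), and their median log2 fold change was 0.01 beside -0.001 for all genes. Per length of transcript the most abundant were Crmp1 and Dpysl2, with mean levels of 745 and 643 CPM per kilobase of exon (RPKM) in LDHA/B+CRMP1+STIP1 and 741 and 627 RPKM in STIP1+NSE. They were followed by Ldha (200.4 and 211 RPKM), Ldhb (160 and 160 RPKM), Eno2 (141 and 146 RPKM), Stip1 (98.7 and 95.4 RPKM) and Gda (40.8 and 51.5 RPKM). The slice thus expressed every targeted protein's gene at a high level in both groups.

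Stip1 (chr1:204209435-204228449 on the minus strand of rn7), whose product was injected in both groups, ran from 173 to 224 CPM (median 210.2) in LDHA/B+CRMP1+STIP1 and from 189.9 to 208 CPM (median 198) in STIP1+NSE, with 189 to 239 CPM in controls. All STIP1+NSE values lay within the range of the other group. The log2 fold change was 0.05 (SE 0.05, 95% interval -0.05 to 0.16, edgeR unadjusted p = 0.294, adjusted p = 0.960). Over litter means the difference was 0.04 on the log2 scale (exact permutation p = 0.516, two-sided, over all assignments of 5 and 4 litters, smallest possible p 0.00794).

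Eno2 (chr4:157572085-157580936, minus strand), the NSE gene, was at 247 to 365 CPM (median 319) in LDHA/B+CRMP1+STIP1 and 263 to 360 CPM (median 340.1) in STIP1+NSE, where its product had been injected. The ranges overlapped almost completely, and the log2 fold change was -0.05 (interval -0.23 to 0.12, edgeR p = 0.533). Crmp1 (chr14:73509933-73556177, minus strand) ran from 2227 to 3051 CPM (median 2403) and from 2138 to 2895 CPM (median 2421), a log2 fold change of 0.01 (interval -0.13 to 0.15, p = 0.886). Ldha (chr1:97371823-97381242, plus strand) ran from 265 to 369 CPM (median 327) and from 258 to 429.97 CPM (median 331), with a log2 fold change of -0.07 (interval -0.28 to 0.14, p = 0.519). The highest Ldha values were those of both STIP1+NSE pups of dam 9_2. Ldhb (chr4:175428382-175446403, minus strand) was at 182 to 265 CPM (median 237) and 179 to 259 CPM (median 230.1), with a log2 fold change of 0.01 (interval -0.17 to 0.19, p = 0.939). The widest of these intervals was that of Ldha.

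Dpysl2 and Gda encode antigens that neither group's dams received. Dpysl2 (chr15:41005551-41072857, minus strand) was at 2489 to 3033 CPM (median 2797.5) and 2067 to 3136 CPM (median 2809), a log2 fold change of 0.04 (interval -0.12 to 0.20, p = 0.588). Gda (chr1:218906852-218982360, minus strand) ran from 46.3 to 77.0 CPM (median 58.9) in LDHA/B+CRMP1+STIP1 and from 52.7 to 147 CPM (median 67.2) in STIP1+NSE, with 37.7 to 84.6 CPM in controls. It came nearest to the threshold, with a log2 fold change of -0.33 (interval -0.67 to 0.01, edgeR p = 0.0552), and its highest animals were the female of dam 9_2 at 147 CPM and her brother at 80.0 CPM. Over litter means Gda gave an exact permutation p of 0.198. Without that litter Gda gave a log2 fold change of -0.07 (unadjusted p = 0.514), against -0.45 to -0.28 without any other litter.

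**Figure D2:**
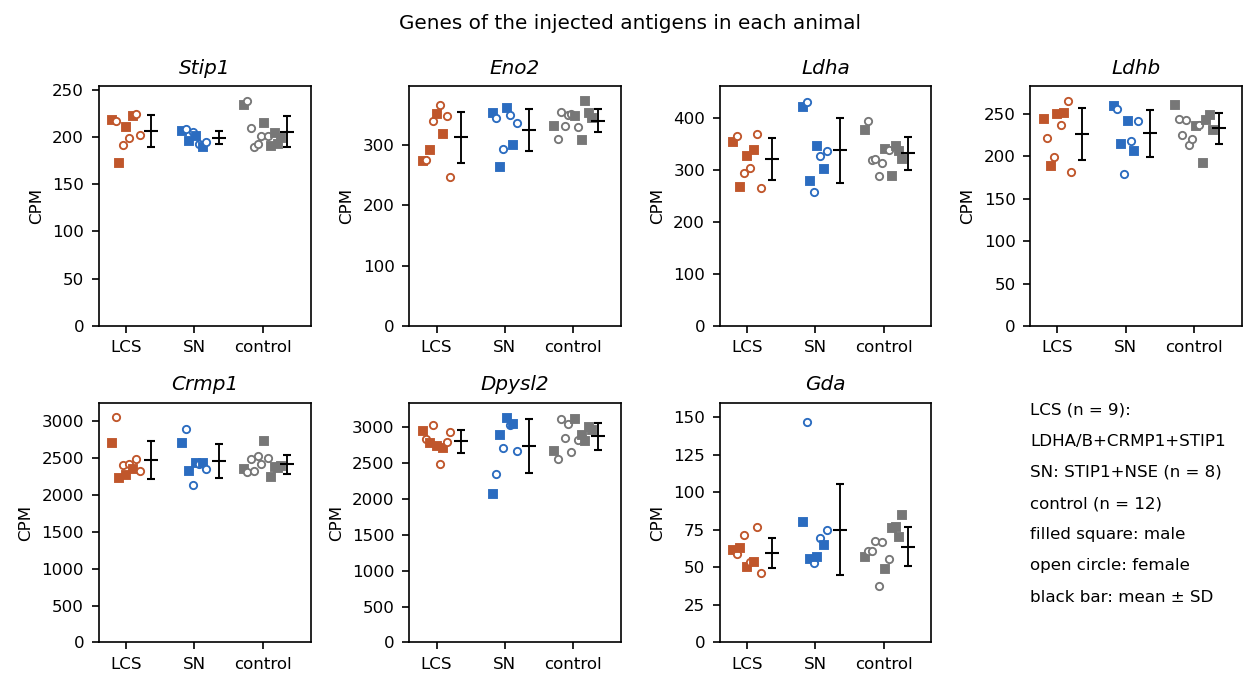
CPM of the 7 antigen genes in each animal of LDHA/B+CRMP1+STIP1 (LCS, n = 9), STIP1+NSE (SN, n = 8) and the MAR_C3 controls (n = 12), with squares for males, circles for females and bars for mean ± SD. The groups overlap for each gene, and the highest Gda point is the STIP1+NSE female of dam 9_2 at 147 CPM.

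Genes that work beside the antigens showed as little. Among relatives and partners of the antigens, 9 genes tested, 0 passed an unadjusted p under 0.05, and the median log2 fold change was -0.01. Among them St13, the HSP70-interacting protein that joins STIP1 in client transfer, gave 0.05 (SE 0.05, edgeR p = 0.338) and Dpysl3 (CRMP4) gave 0.05 (SE 0.06, p = 0.404). Of 42 chaperone genes tested, 28 had higher and 14 lower fitted levels in LDHA/B+CRMP1+STIP1, with a median of 0.01. Only Fkbp5 passed an unadjusted p under 0.05 (background 3.84%). Fkbp5, an HSP90 co-chaperone of the glucocorticoid receptor, ran from 61.9 to 73.1 CPM (median 66.0) against 56.7 to 74.9 CPM (median 61.3), a log2 fold change of 0.13 (SE 0.05, edgeR p = 0.0236, and p = 0.0838 with counts summed per litter). Next came Ahsa1, the activator of the HSP90 ATPase, at 0.11 (SE 0.06, p = 0.0755). Of 30 glycolysis genes 13 were higher and 17 lower in fitted level, 0 passed, and the median was -0.02. Of 31 genes of semaphorin signalling and the axonal cytoskeleton 19 were higher and 12 lower, 0 passed, and the median was 0.01. Among them Stmn1, the tubulin-binding stathmin, gave 0.12 (SE 0.09, p = 0.180) and Map1b, a microtubule protein of growing axons, gave -0.16 (SE 0.13, p = 0.237).

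Genes of inhibitory and excitatory transmission leaned to one side. All 22 tested genes of the GABA receptor list had lower fitted levels in LDHA/B+CRMP1+STIP1, with a median log2 fold change of -0.12 beside -0.001 for all genes, but only 1 of 22 passed an unadjusted p under 0.05 (background 3.84%). Of the members that did not pass, Gabrg1, a γ subunit of GABA-A receptors, gave -0.21 (SE 0.10, edgeR p = 0.0528) and Slc12a5, the chloride exporter KCC2, gave -0.31 (SE 0.16, p = 0.0721). As the mean log2 CPM over the list, the animals ran from 5.49 to 6.05 (median 5.86) and from 5.64 to 6.11 (median 5.97), so that the groups overlapped. The lowest animals were both pups of dam 9_4 and the female of dam 9_24, followed by the STIP1+NSE male of dam 9_7, and 21 of 22 genes were lower with counts summed per litter.

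Of 23 glutamate receptor genes, 18 had lower fitted levels in LDHA/B+CRMP1+STIP1, with a median of -0.11. An unadjusted p under 0.05 was passed by 2 of them (background 3.84%). Grin2c, an NMDA receptor subunit of the later brain, ran from 1.91 to 5.34 CPM (median 2.502) against 2.78 to 8.96 CPM (median 5.33), a log2 fold change of -0.72 (SE 0.24, edgeR p = 0.00780). The highest values were in the STIP1+NSE male of dam 9_12 and female of dam 9_2. Grm8, a presynaptic metabotropic receptor, gave -0.36 (SE 0.16, p = 0.0383, and p = 0.0903 with counts summed per litter). Of 45 synaptic vesicle genes, 34 were lower and 11 higher, with a median of -0.07, and 2 passed, near the background of 3.84%. These were Cadps, a priming factor of dense-core vesicles, at -0.15 (SE 0.06, p = 0.0216), and Snap91, a clathrin assembly protein, at -0.15 (SE 0.06, p = 0.0293), and with counts summed per litter neither passed (p = 0.0590 and 0.0707). Without the 4 animals with Hox genes, more members of these lists passed an unadjusted p under 0.05, 10 GABA receptor, 9 glutamate receptor and 14 synaptic vesicle genes, all lower in LDHA/B+CRMP1+STIP1. With these animals left out 1165 of the 12454 genes tested passed, so the background rose as well, and 0 genes passed FDR < 0.1. In that fit 5 thalamic genes passed, all lower (list median -0.51), and 9 cortex and hippocampus genes, all higher (list median 0.28). With all animals the list of thalamic markers moved the same way as the receptor lists (13 of 15 lower, median -0.23). Over 31 alternative fits, 1 of them with the thalamic list mean as a covariate, the 3 list medians stayed below 0. The GABA receptor median ran from -0.29 to -0.03, the glutamate receptor median from -0.19 to -0.01 and the synaptic vesicle median from -0.12 to -0.04. Beyond that covariate, the part of thalamic tissue in the receptor genes' levels was not tested.

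Genes of dividing cells had lower fitted levels in LDHA/B+CRMP1+STIP1 for 26 of 33 tested, with a median of -0.09, and 4 of the 33 passed an unadjusted p under 0.05 (background 3.84%). Cenpf, a kinetochore protein of late cell cycle, ran from 11.3 to 18.5 CPM (median 12.6) against 12.9 to 29.2 CPM (median 21.8), a log2 fold change of -0.52 (SE 0.16, edgeR p = 0.00439). Its highest value was in the female of dam 9_7, and 5 STIP1+NSE animals lay above every LDHA/B+CRMP1+STIP1 animal. Aurkb and Plk1, mitotic kinases, gave -0.30 (SE 0.12, p = 0.0276) and -0.23 (SE 0.10, p = 0.0359), and Ccna2, cyclin A2, gave -0.26 (SE 0.10, p = 0.0161). With counts summed per litter Aurkb and Plk1 no longer passed (p = 0.0504 and 0.0668). In males alone Plk1 gave -0.03 (p = 0.835) and Ccna2 -0.08 (p = 0.585), and the edgeR interaction with sex gave an unadjusted p of 0.0592 and 0.0780 for these genes. In the mean log2 CPM of the whole list the groups overlapped, from 3.69 to 4.28 and from 3.90 to 4.27. Of 73 oxidative phosphorylation genes, 60 were higher in fitted level and 13 lower, 0 passed, and the median was 0.04. Of 24 immediate early genes 12 were higher and 12 lower, 0 passed, and Fos, Npas4 and Nr4a3 gave -0.36 (p = 0.106), -0.48 (p = 0.0980) and 0.27 (p = 0.0950).

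**Figure D3:**
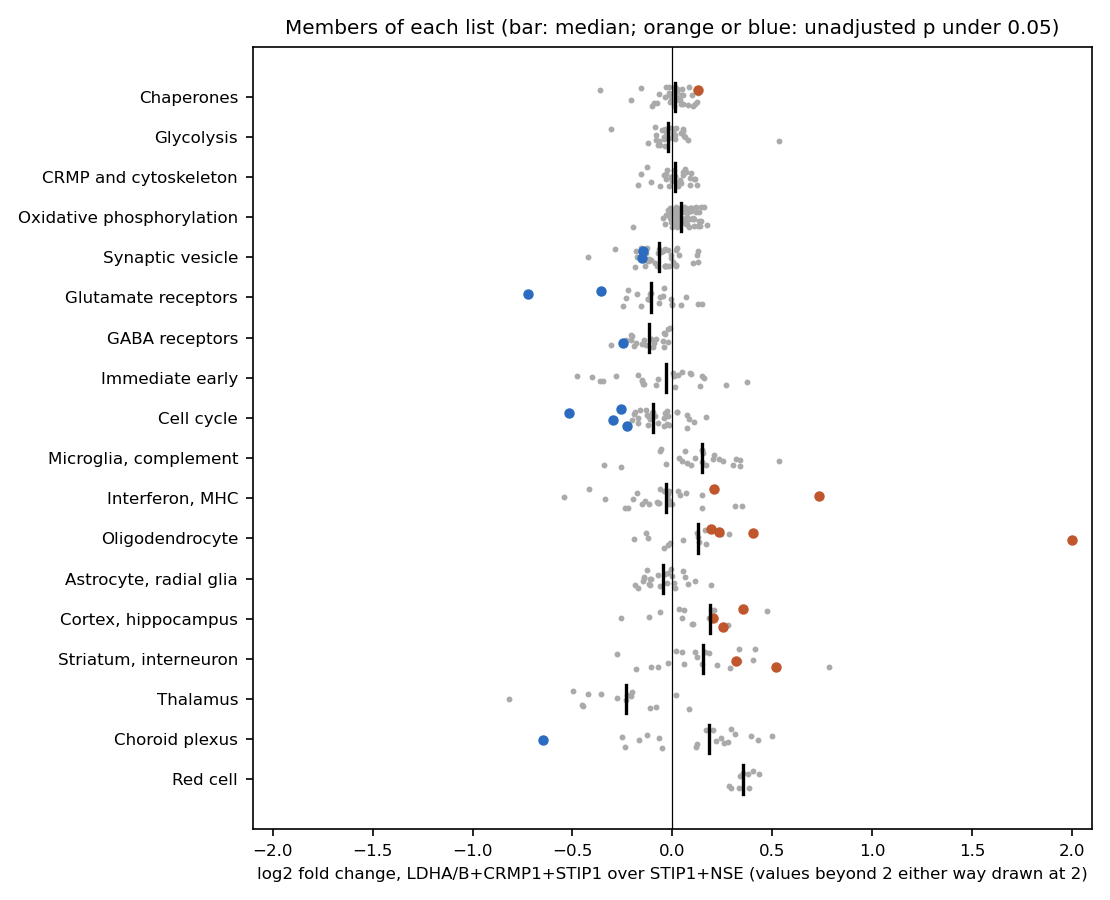
Log2 fold change (LDHA/B+CRMP1+STIP1 over STIP1+NSE, x axis) of each tested member of 18 gene lists (rows), with the list median as a black bar and members at an unadjusted p under 0.05 in colour. Medians of chaperone, glycolysis and cytoskeleton lists sit at 0.01, -0.02 and 0.01, and all 22 GABA receptor genes lie left of 0.

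Immune genes gave no gene at the unadjusted threshold outside the major histocompatibility complex. Of 7 Fc receptor genes tested 0 passed, and Fcgr2a and Fcgr3a, which bind IgG on microglia, gave 0.14 (SE 0.20, edgeR p = 0.480) and 0.15 (SE 0.34, p = 0.657). Of 25 microglia and complement genes 20 were higher in fitted level in LDHA/B+CRMP1+STIP1, with a median of 0.15, and 0 passed. C1qa, a subunit of the complement starter C1q, ran from 3.73 to 8.12 CPM (median 4.98) against 3.17 to 6.95 CPM (median 3.84), a log2 fold change of 0.34 (SE 0.20, p = 0.110). Most cytokine genes could not be compared at this depth. Of 28 genes for a panel of cytokines, chemokines and growth factors, 5 passed the filter, and Il2, Il13 and Il17a had 0 counts in all 17 animals. Il6 was counted in 1 animal (2 reads), Il10 in 2 and Il1b in 10. The 5 that could be tested included Cx3cl1, fractalkine, at -0.14 (SE 0.13, p = 0.281), Il18 at -0.20 (SE 0.26, p = 0.462) and Egf at 0.12 (SE 0.16, p = 0.457).

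In the list of interferon and antigen presentation genes 9 of 30 were higher, 21 lower, and 2 of the 30 passed (background 3.84%), both in antigen presentation. RT1-A1, a class I heavy chain, ran from 0.935 to 4.97 CPM (median 2.77) against 0.911 to 3.36 CPM (median 1.62), a log2 fold change of 0.73 (SE 0.30, edgeR p = 0.0262). Tapbp, the tapasin that loads peptides onto class I, gave 0.21 (SE 0.10, p = 0.0418). The fits by litter ended both calls, with p = 0.124 for RT1-A1 and 0.0733 for Tapbp with counts summed per litter, and 0.142 and 0.0843 with litter as a random effect. RT1-A3 (chr20:4847589-4851320) was among the 12 genes with the smallest p higher in LDHA/B+CRMP1+STIP1, from 0.288 to 1.59 CPM (median 0.477) against 0.0364 to 0.516 CPM (median 0.148), a log2 fold change of 1.57 (SE 0.49, p = 0.00488). Its highest values were in the males of dams 9_19 and 9_9. RT1-A3 met the filter only through LDHA/B+CRMP1+STIP1 animals, so its direction was largely set by the filter. With counts summed per litter it was too rare to be tested. The RT1 genes are near-identical copies whose reads the counting could split, and Sprague-Dawley rats are outbred, so these values are uncertain.

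Of 12 genes that the study's text names, chosen by the study on libraries that include these, 1 passed an unadjusted p under 0.05 (background 3.84%). Bach1 (chr11:26939480-26972447, plus strand), a repressor of haem and oxidative stress genes, ran from 41.7 to 56.2 CPM (median 45.3) in LDHA/B+CRMP1+STIP1 and from 36.1 to 48.1 CPM (median 42.6) in STIP1+NSE. The highest were both pups of dam 9_4 and the female of dam 9_24, and the rest of the 9 lay within the STIP1+NSE range. Its log2 fold change was 0.18 (SE 0.08, interval 0.02 to 0.34, edgeR p = 0.0292), with an exact permutation p of 0.127 over litter means. Its relative Bach2, a repressor known from lymphocytes, gave 0.23 (interval -0.07 to 0.53, p = 0.120). Efna2, an ephrin that guides axons, gave 0.16 (interval -0.004 to 0.33, p = 0.0550) and Pag1, an adaptor that restrains Src kinases, gave 0.19 (interval -0.03 to 0.42, p = 0.0921). Calb2 and Vsnl1, neuronal calcium-binding proteins, gave -0.23 (interval -0.60 to 0.13) and -0.15 (interval -0.43 to 0.12), and Mt1, a metallothionein, gave -0.14 (interval -0.44 to 0.16). The NMDA receptor gene Grin3b gave 0.04 (interval -0.28 to 0.37), the Hippo pathway gene Sav1 0.04 (interval -0.14 to 0.22) and Kiaa0408L -0.04 (interval -0.19 to 0.11). Mfrp (0.31, interval -0.46 to 1.08) and Polq, the repair polymerase theta (-0.32, interval -1.16 to 0.53), had the widest intervals, and over litter means the 12 genes gave exact permutation p from 0.127 to 0.865.

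The 12 genes with the smallest p on the side of LDHA/B+CRMP1+STIP1 were led by small shifts of well expressed genes. Hdac5 (chr10:87152978-87187895, minus strand), a class IIa histone deacetylase that shuttles between nucleus and cytoplasm with neuronal activity, was at 169 to 215 CPM (median 195) against 159 to 189.6 CPM (median 170.1) in STIP1+NSE and 165 to 206 CPM in controls. In 6 of the 9 animals it lay above every STIP1+NSE animal, with the female of dam 9_9 at the bottom of the group. The log2 fold change was 0.20 (SE 0.05, interval 0.09 to 0.31, edgeR p = 0.00134, adjusted p = 0.960). Mpped2 (chr3:93183337-93354879, plus strand), a metallophosphoesterase of fetal brain, ran from 38.2 to 73.4 CPM (median 52.7) against 27.6 to 47.5 CPM (median 42.2), a log2 fold change of 0.43 (SE 0.12, p = 0.00185). Both pups of dam 9_4, at 73.4 and 70.0 CPM, stood highest, while 3 LDHA/B+CRMP1+STIP1 animals lay within the STIP1+NSE range. Hdac5 and Mpped2 kept an unadjusted p under 0.05 in each of 31 alternative fits. These fits reuse the counts from which the 2 genes were picked for their small p, so they are not independent support.

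Arfgap3 (chr7:114432956-114479173, minus strand), a regulator of Golgi traffic, ran from 37.8 to 43.1 CPM (median 41.03) against 35.3 to 37.965 CPM (median 35.7), a log2 fold change of 0.16 (SE 0.05, edgeR p = 0.00237). The lowest animals of the first group just reached the highest of the second. Itpkc, an inositol trisphosphate kinase, gave 0.20 (SE 0.06, p = 0.00403), Szrd1 0.17 (SE 0.05, p = 0.00458) and Mrm2, which methylates mitochondrial ribosomal RNA, 0.31 (SE 0.09, p = 0.00423). The zinc finger genes Zfp707l1 and Zfp180 gave 0.39 (SE 0.11, p = 0.00332) and 0.27 (SE 0.08, p = 0.00474), and N4bp3 gave 0.38 (SE 0.12, p = 0.00498, and p = 0.0919 with counts summed per litter). Myl3, a myosin light chain of heart and slow muscle, was rare, from 0.462 to 1.71 CPM (median 0.865) against 0.297 to 0.632 CPM (median 0.457), a log2 fold change of 1.10 (SE 0.31, p = 0.00258). Its highest values came from the male of dam 9_4 and the female of dam 9_24. Myl3 met the filter only through LDHA/B+CRMP1+STIP1 animals, so its direction was largely set by the filter.

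On the side of STIP1+NSE, Tfap2d had the smallest p of all genes. Tfap2d (chr9:21680577-21740726, plus strand), a transcription factor of the AP-2 family known from the midbrain, ran from 2.15 to 4.77 CPM (median 2.69) in LDHA/B+CRMP1+STIP1 and from 2.77 to 6.58 CPM (median 5.09) in STIP1+NSE, with 2.02 to 6.59 CPM in controls. All 4 STIP1+NSE females and the male of dam 9_7 lay above every LDHA/B+CRMP1+STIP1 animal, and the males of dams 9_2, 9_12 and 9_17, at 4.56, 3.68 and 2.77 CPM, overlapped with that group. The log2 fold change was -0.73 (SE 0.18, interval -1.10 to -0.36, edgeR p = 0.000590, adjusted p = 0.960). Tfap2d kept an unadjusted p under 0.05 in each of 31 alternative fits, which reuse the counts it was picked from and are not independent support. Crot, the peroxisomal carnitine octanoyltransferase, ran from 10.8 to 17.2 CPM (median 13.3) against 13.8 to 21.2 CPM (median 17.2), a log2 fold change of -0.36 (SE 0.10, p = 0.00180). Scd, the stearoyl-CoA desaturase that makes monounsaturated fatty acids, ran from 26.6 to 40.3 CPM (median 34.7) against 35.03 to 53.5 CPM (median 41.3), a log2 fold change of -0.33 (SE 0.10, p = 0.00355). Cenpf, described above, was also among the 12 genes with the smallest p on this side.

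A further 7 of the 12 were rare genes that were high in the same 2 animals, and 6 of them are known from photoreceptors. Crx is the homeobox factor of photoreceptors and pinealocytes, Rbp3 binds retinoids between photoreceptors and pigment epithelium, Gnat2 is the cone transducin, Cngb1 a subunit of the rod cation channel, Prph2 a disc membrane protein and Tulp1 a protein of photoreceptor transport. Crx (chr1:76540141-76545818, minus strand of rn7) was at 3.88 CPM in the STIP1+NSE male of dam 9_7 and 4.63 CPM in that of dam 9_12, at 0.149 CPM in the female of dam 9_17, and at 0 in the other 14 animals. Rbp3 was at 8.65 and 14.5 CPM in the same males and at most 0.274 CPM elsewhere, and Gnat2 at 10.7 and 21.5 CPM against at most 0.411 CPM elsewhere. Tulp1 was at 2.59 and 5.25 CPM, Prph2 at 1.77 and 2.04 CPM, Cngb1 at 1.64 and 3.02 CPM and Krt15, an epithelial keratin, at 2.25 and 8.20 CPM in these males. The same males carried Tph1, which makes serotonin in the pineal gland, at 30.2 and 60.1 CPM against at most 1.67 CPM elsewhere. In the 14 tested genes of the pineal list, 13 were lower in LDHA/B+CRMP1+STIP1. With all animals 5 passed an unadjusted p under 0.05 (background 3.84%). Without these 2 males 0 passed, but Pde6c, Aipl1 and the 7 rare genes above were then too rare to be tested. Those genes had met the filter only through these 2 males, so the 0 is not a test of them. The sisters of the 2 males had Crx at 0 and Tph1 at 0.221 and 0.392 CPM.

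Because these genes moved together, the 250 bases before their start sites are shown for Crx, Rbp3 and Cngb1, taken from RefSeq on build GRCr8, which differs from the build of the counts. Capitals mark TAATCC or, on the other strand, GGATTA, the core of the site that CRX is known to bind.
Crx, chr1:85681853-85682102, minus strand: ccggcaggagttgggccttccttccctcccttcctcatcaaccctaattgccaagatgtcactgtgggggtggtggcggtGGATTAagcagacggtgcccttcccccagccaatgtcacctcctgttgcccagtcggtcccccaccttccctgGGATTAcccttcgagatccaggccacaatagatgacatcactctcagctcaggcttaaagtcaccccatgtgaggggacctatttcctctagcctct
Rbp3, chr16:9273537-9273786, plus strand: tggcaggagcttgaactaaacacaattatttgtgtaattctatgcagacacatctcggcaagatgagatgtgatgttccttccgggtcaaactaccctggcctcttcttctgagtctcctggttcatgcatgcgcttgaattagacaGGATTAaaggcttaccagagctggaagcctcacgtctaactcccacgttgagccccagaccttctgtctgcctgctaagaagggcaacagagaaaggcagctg
Cngb1, chr19:9732396-9732645, plus strand: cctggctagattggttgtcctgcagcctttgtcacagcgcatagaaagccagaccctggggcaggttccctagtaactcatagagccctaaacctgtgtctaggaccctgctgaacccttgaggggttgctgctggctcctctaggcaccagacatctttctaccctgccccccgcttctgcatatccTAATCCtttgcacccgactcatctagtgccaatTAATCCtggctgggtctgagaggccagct
The core stands 170 and 97 bases before the start of Crx, 103 before that of Rbp3, and 62 and 29 before that of Cngb1. Of 10 photoreceptor and pineal genes looked for, chosen after their values were seen, 8 matched an entry, and 6 of the 8 hold the core in this window (also Prph2, Aanat and Aipl1, not Tulp1 or Tph1). Over all 33469 promoters of the same length 6.34% hold it, and over those of 10427 tested genes 4.64%. A match is a description of the letters and not evidence of binding.

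Hox genes ran the other way. Of 12 Hox genes tested, all 12 were higher in fitted level in LDHA/B+CRMP1+STIP1 and 3 passed an unadjusted p under 0.05 (background 3.84%). Hox genes met the filter only through the 4 animals that carried them, 3 of which were LDHA/B+CRMP1+STIP1. The shared direction was thus largely set by the filter and is not a test of the exposure. Hoxb7 (chr10:81252616-81256034, plus strand) was at 2.46 and 2.11 CPM in the female and male of dam 9_14, at 1.13 CPM in the female of dam 9_9, at 0.138 CPM in the female of dam 9_19, at 0.0681 CPM in the STIP1+NSE male of dam 9_7, and at 0 in the other 12 animals and in every control. Hoxb8 was at 9.61 CPM in the male and 7.01 CPM in the female of dam 9_14, 7.14 CPM in the female of dam 9_9 and 0.920 CPM in the male of dam 9_7. Hoxa5 reached 35.1 CPM in LDHA/B+CRMP1+STIP1 and 3.13 CPM in STIP1+NSE. Each rests on 3 animals of 2 litters, and without the 4 animals named above no Hox gene was abundant enough to be tested. Mobp, a myelin gene, was also highest in the male and female of dam 9_14, at 3.24 and 1.68 CPM against at most 0.444 CPM in the rest. It met the filter only through these 2 pups, so its direction too was largely set by the filter.

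**Figure D4:**
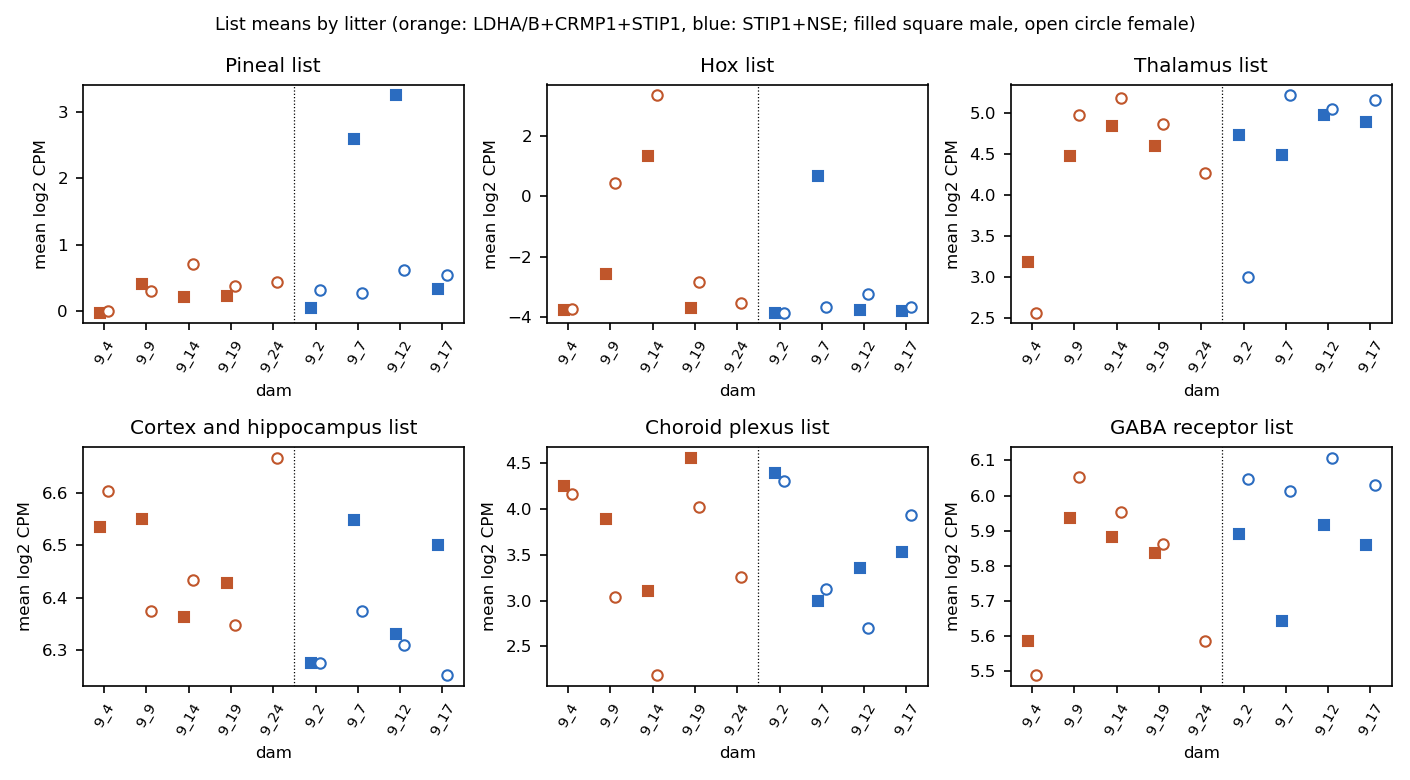
Mean log2 CPM over 6 gene lists (y axes) for the pups of each dam (x axis), with LDHA/B+CRMP1+STIP1 left and STIP1+NSE right of the dotted line. Pineal genes are high in the males of dams 9_7 and 9_12, Hox genes in 4 animals, and thalamic genes are low in 3 animals of dams 9_4 and 9_2.

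Among the other regional lists, genes of cortex and hippocampus were the most one-sided in LDHA/B+CRMP1+STIP1. Of 18 tested, 15 had higher fitted levels, with a median of 0.19, and 3 passed an unadjusted p under 0.05 (background 3.84%). Neurod6, a transcription factor of pyramidal neurons, ran from 137 to 269.8 CPM (median 198) against 133 to 207 CPM (median 152), a log2 fold change of 0.35 (SE 0.13, edgeR p = 0.0142). Both pups of dam 9_4 and the female of dam 9_24 were highest, at 241, 269.8 and 243 CPM. Lhx2, a selector of cortical identity, gave 0.20 (SE 0.09, p = 0.0280) and Nfix, a factor of hippocampal development, 0.26 (SE 0.12, p = 0.0470). With counts summed per litter Neurod6 passed (p = 0.0381) and Lhx2 and Nfix did not (p = 0.0615 and 0.0613). In males alone Neurod6 gave 0.13 (p = 0.437), Lhx2 0.05 (p = 0.618) and Nfix 0.03 (p = 0.838), and the edgeR interaction with sex gave unadjusted p of 0.103, 0.0808 and 0.0694. The animals overlapped in the mean log2 CPM of the list, from 6.35 to 6.67 and from 6.25 to 6.55. The pups of dam 9_4 also had the lowest thalamic markers of their group. Their mean log2 CPM was 3.18 and 2.57 against 4.27 to 5.18 in the other LDHA/B+CRMP1+STIP1 animals. In that litter the level of one structure's genes thus ran against the other's. The STIP1+NSE female of dam 9_2 did not show this. Her thalamic mean was 3.007, and her cortex and hippocampus mean of 6.275 was near the low end of her group. The part of slice position in these levels was not tested.

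Of 22 genes of striatum and interneurons, 17 had higher fitted levels and 2 passed (background 3.84%). Lhx6, a factor of cortical interneurons born in the medial ganglionic eminence, gave 0.32 (SE 0.10, edgeR p = 0.00506). Npy, the neuropeptide of some of these interneurons, gave 0.52 (SE 0.24, p = 0.0430, and p = 0.0829 with counts summed per litter). Of 18 oligodendrocyte genes 12 had higher fitted levels and 4 passed (background 3.84%), of which Olig2 alone passed with counts summed per litter (p = 0.0405). Olig2, the lineage factor, ran from 52.8 to 74.0 CPM (median 56.7) against 43.3 to 60.6 CPM (median 50.4), a log2 fold change of 0.23 (SE 0.08, p = 0.00881), and Mbp, myelin basic protein, gave 0.40 (SE 0.14, p = 0.0101). Without the 4 animals with Hox genes Mbp gave 0.16 and no longer passed (p = 0.106), while Olig2 gave 0.26 and still passed. Sox8 gave 0.19 (SE 0.09, p = 0.0474). With counts summed per litter Mbp gave p = 0.0842 and Sox8 0.104, and Mobp, named above, was too rare to be tested. Mobp is 1 of the 4 and met the filter only through the pups of dam 9_14, so it is not a test of the exposure. The hypothalamic list held 1 gene in each direction, Cartpt at 0.70 (SE 0.28, p = 0.0236, and p = 0.104 with counts summed per litter) and Fezf1 at -0.67 (SE 0.30, p = 0.0399), with a median of -0.29 over 16 genes. Of 12 midbrain and hindbrain genes, 9 were lower and 1 passed (background 3.84%, for this and the other lists here). This was Slc6a3, the dopamine transporter, which reached 4.94 CPM in the male of dam 9_7 and at most 0.491 CPM in LDHA/B+CRMP1+STIP1. Slc6a3 met the filter only through STIP1+NSE animals, so its direction was largely set by the filter. With counts summed per litter it was too rare to be tested. Choroid plexus genes, summed, ran from 540.0 to 2817 CPM and from 770.1 to 2609 CPM, and only Prlr, the prolactin receptor, passed, at -0.65 (SE 0.30, p = 0.0456, and p = 0.0699 with counts summed per litter). All 9 red cell genes were higher in LDHA/B+CRMP1+STIP1 with a median of 0.35 and 0 passed. Their summed level ran from 743 to 2046 CPM and from 596 to 2221 CPM. No gene passed among 21 endothelial and pericyte, 17 meningeal and 24 astrocyte and radial glia genes, with medians of -0.06, -0.15 and -0.05, and 9 genes of RNA quality and stress gave 0 with a median of 0.01.

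Littermates resembled each other. The first principal component of log2 CPM held 27.1% of the variance, of which group membership accounted for a share of 0.0363 and litter for 0.874, and on the second (12.4% of variance) the shares were 0.0131 and 0.696. Each litter lies within 1 exposure, so the share of litter cannot fall below that of exposure, and the order of these shares shows nothing. In its whole series the paper reports strong correlations of leading components with batch or cohort. The share of cohort in the components here was not tested. The consensus correlation between littermates in a mixed model was 0.486. When the counts of each litter were summed, 152 of 12338 genes (1.23%) passed an unadjusted p under 0.05 and 0 passed FDR < 0.1, and with litter as a random effect in limma 156 (1.24%) and 0 passed. Of the 152, 132 were among the 481 of the fit over animals. Hdac5 gave 0.21 (p = 0.0111), Mpped2 0.43 (p = 0.00794), Tfap2d -0.72 (p = 0.00288) and Crot -0.35 (p = 0.00458) over summed litters in edgeR, each unadjusted. Of 53 genes under the naming rule that passed over animals, 29 also passed over summed litters, 18 did not and 6 were too rare to be tested, while 27 passed and 26 did not with litter as a random effect. The 18 comprise Bach1 (p = 0.0655), Hoxa5 (p = 0.0827) and the 16 genes given above as lost over summed litters. The p-values over animals treat littermates as separate, and the fits by litter do not.

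**Figure D5:**
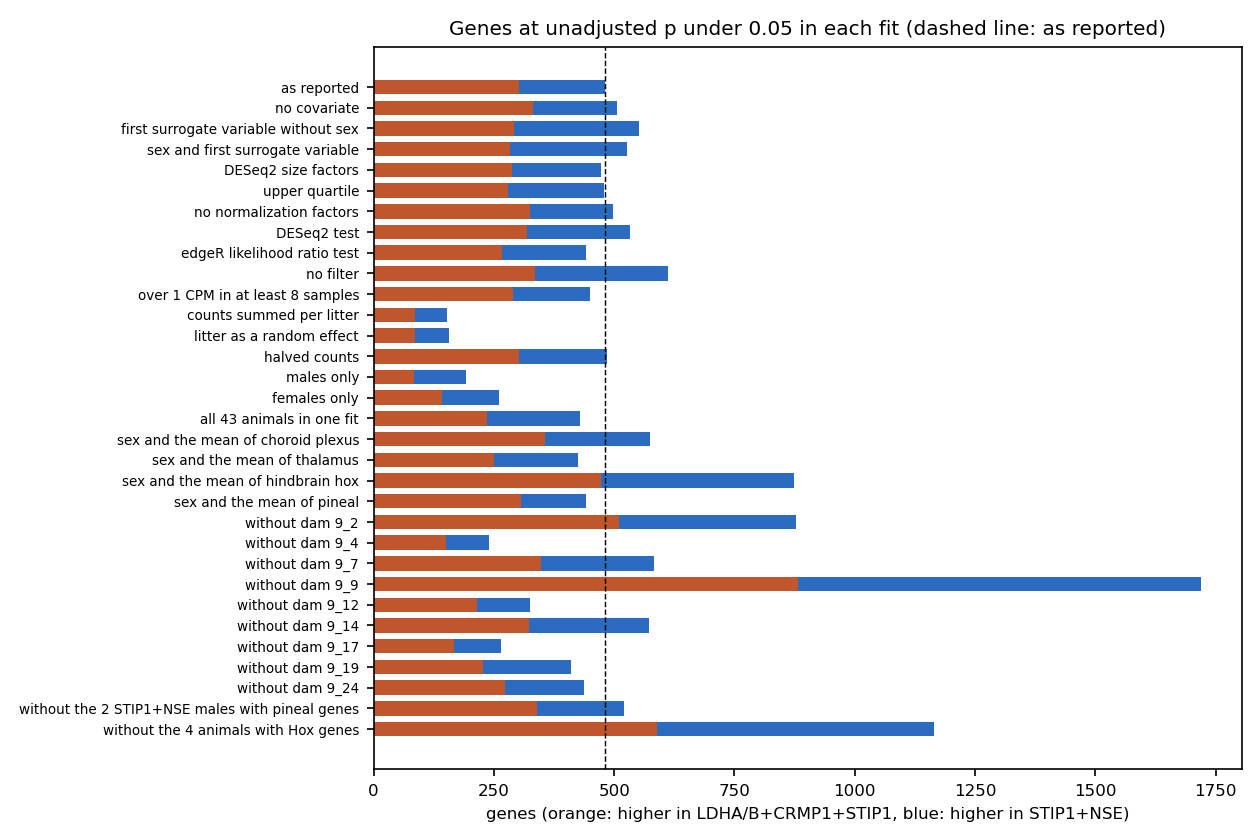
Number of genes at an unadjusted p under 0.05 (x axis) in the fit as reported, 481, and in 31 alternative fits, split by direction. The count was 152 with counts summed per litter and 1719 without dam 9_9.

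The count at the unadjusted threshold depended on which litters were in. Leaving out 1 litter at a time gave 240 genes without dam 9_4, 265 without dam 9_17, 878 without dam 9_2 and 1719 without dam 9_9, and 325 to 582 without the others. None of these fits had a gene at FDR < 0.1, and the smallest adjusted p among them was 0.149, without dam 9_9. Without dam 9_9, Stip1 and Gda were the antigen genes that passed an unadjusted p under 0.05. With the first surrogate variable in place of sex 551 genes (4.39%) passed an unadjusted p under 0.05, and with both 527 (4.2%). With sex and the first surrogate variable, 1 gene (0.00797% of genes tested) passed FDR < 0.1. This was LOC100912041 (chr1:205619202-205622491, plus strand of rn7), an unnamed locus singled out after its values were seen, at 32.2 to 95.1 CPM (median 53.9) against 24.2 to 50.2 CPM (median 35.3). Its log2 fold change was 0.70 with an adjusted p of 0.0367 in that fit, and 0.59 with an adjusted p of 0.960 without the surrogate variable.

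The response was next compared between male and female pups. The interaction of exposure and sex gave 0 genes at FDR < 0.1 in edgeR and 147 (1.17%) at an unadjusted p under 0.05, and 3 genes at FDR < 0.1 in DESeq2, Aanat, LOC100911498 and RT1-CE16, each with an adjusted p of 0.0903 there and 0.9999 in edgeR. For the 7 antigen genes the interaction p was 0.386 or higher, with the difference of Gda at 0.30 (SE 0.33) and that of Crmp1 at -0.12 (SE 0.14). The smallest interaction p values were those of RT1-CE16 (p = 0.000570), a class I gene with near-identical copies, and Aanat (p = 0.00105), the pineal enzyme of melatonin synthesis. In 1 sex at a time, 191 genes passed an unadjusted p under 0.05 in males and 261 in females, and 0 passed FDR < 0.1 in either.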

How the data were processed

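RNA was sequenced from 1 coronal brain slice per PND2 pup. The deposited table holds raw counts per gene, which the authors made by running STAR 2.5.4b on the paired reads (rat build rn7) and counting alignments with featureCounts (version not given in the sources used here). The deposited table also gives each gene's exon length. Of counts from 1 to 9, 73.9% were even, so halved counts were tried as well. Exposure, dam and sex came from the labels, which do not give the study's cohort of each litter. Every pair of the 136 possible pairs of libraries differed beyond sampling noise.

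Genes with over 1 CPM in at least 2 of the 17 animals were kept. They were tested in R 4.3.3 with edgeR 4.0.16 (TMM, robust quasi-likelihood, sex as covariate), with Benjamini-Hochberg adjustment over 12540 genes, FDR < 0.1, and an unadjusted p under 0.05. The study corrected its models with the first surrogate variable or with principal components. The first is an alternative here, and principal components were not used as covariates. CPM values shown are TMM-scaled over the 17 animals and 12 controls. List levels are means of log2 CPM (prior count 2). Alternatives used DESeq2 1.42.0, limma 3.58.1 and sva 3.50.0. Single genes were also tested by exact permutation of litter means, two-sided, for 19 genes without adjustment. Scripts were tested on simulated data.

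Genes named are the 7 antigen genes, 12 named in the study's text, the 12 with the smallest p in each direction and up to 4 members of each list with the smallest p. Others are said to be chosen after their values were seen, and some genes that the rule names are not reported here. The animals, the 30 gene lists and the tests were chosen with earlier results of these data known. Littermates share a dam, and p-values over animals measure the spread between animals.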

Additional observations from a re-analysis of the deposited data

Results flagged for a closer look

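In 113 group-by-measure sets of 8 or 9 animals (the antigen, study-named and top-ranked genes, and the marker lists), 8 had a lowest or highest animal beyond Dixon's 95% limit, while chance alone flags about 1 set in 20. Gda was 146.7 CPM in the female of dam 9_2, with the next animal at 80.0 CPM. The thalamic list had a mean log2 CPM of 3.007 in the same female, with the next at 4.49. Mpped2 was 27.65 CPM in the female of dam 9_7, with the next at 38.7 CPM. In her brother the hypothalamic list was at -0.4004 with the next at 1.33, the Hox list was at 0.6492 with the next at -3.24, and Hoxb7 was 0.06815 CPM with the others at 0. In LDHA/B+CRMP1+STIP1, Krt15 was 0.2727 CPM in the male of dam 9_14 with the next at 0.0692 CPM, and Cngb1 was 0.0346 CPM in the female of dam 9_19 with the next at 0.171 CPM. The pineal genes were high in a pair of STIP1+NSE males, so no single animal stood alone.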

How the results depend on the processing

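By animal number, no paired analysis was possible because the labels hold 1 running series that ties no LDHA/B+CRMP1+STIP1 animal to a STIP1+NSE animal. That reason does not cover the dam numbers, which run in rounds that repeat the order of the exposures. The rounds place dam 9_2 with 9_4, 9_7 with 9_9, 9_12 with 9_14 and 9_17 with 9_19. Dam 9_24 has no STIP1+NSE partner among the litters used here. A fit with these rounds as a block was possible but was not tested. The study also assigned a cohort to litters whose birth and collection fell close together in time. Cohort is absent from the labels used here, so a fit with cohort as a block was not tested. Across 31 alternative fits the count of genes at FDR < 0.1 was 0 except with sex and the first surrogate variable, where it was 1 (LOC100912041). The count at an unadjusted p under 0.05 was 481 as reported and stayed within 1.5 times of that in most fits. It was 152 with counts summed per litter and 156 with litter as a random effect, fits that do not treat littermates as separate. It was 191 in males only and 261 in females only, 873 with the Hox list mean as a covariate and 1165 without the 4 animals with Hox genes. When 1 litter was left out it was 240 to 1719. The cause of the lower and of the higher counts was not tested. The 2 fits without animals that stood apart, 520 genes without the 2 STIP1+NSE males with pineal genes and the 1165 above, were chosen after seeing the data. Of the 7 antigen genes 0 passed an unadjusted p under 0.05 as reported. Apart from the fits without 1 litter, 1 passed in 9 fits, which was Gda in 8 of them: with the first surrogate variable, with or without sex, in DESeq2, in edgeR's likelihood ratio test, with the choroid plexus, thalamic or pineal list mean as a covariate, and without the 2 males. In the ninth, without the 4 animals with Hox genes, it was Eno2 (-0.18). With 1 litter left out 0 to 2 passed, Gda without dam 9_7 or 9_12 and Stip1 and Gda without dam 9_9. Genes whose response differed by sex were 0 as reported and 3 in DESeq2 (Aanat, LOC100911498 and RT1-CE16), each at an adjusted p of 0.0903 there and at an unadjusted p of 0.000570 to 0.00266 in edgeR. Aanat is a pineal gene, and its interaction cannot be told apart from the 2 STIP1+NSE males with pineal genes. The interaction could not be fitted on counts summed per litter, since the sexes are then merged.

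Of 2206 comparisons of a named gene with its reported value, 1845 kept direction and side of the unadjusted threshold, 268 lost it, 50 gained it and 43 turned direction. Of these 43, 39 were genes that had not passed as reported. Ldhb turned to -0.029 with the surrogate variable, -0.027 with sex and the surrogate variable, -0.027 with summed litters, -0.010 with litter as a random effect, -0.0077 in females, -0.0043 in all 43 animals, -0.0026 with the thalamic list and -0.015 without the Hox animals. Crmp1 turned to -0.024 with the surrogate variable, -0.032 with sex as well, -0.051 in males, -0.040 with the thalamic and -0.012 with the pineal list. Sav1 turned to -0.018, -0.026, -0.023 and -0.0013 with the surrogate variable, the same with sex, the thalamic and the pineal list. Kiaa0408L turned to 0.0019 with the surrogate variable, 0.027 in females, 0.013 with the pineal list and 0.012 without the 2 males, and Polq to 0.017 in males. Prlr turned to 0.0065 in males, and Tph1 to 0.00020 in females, 0.24 with the pineal list and 0.14 without the 2 males. With 1 litter left out, Ldha ran from -0.16 to 0.061, Ldhb from -0.056 to 0.069, Crmp1 from -0.060 to 0.073, Dpysl2 from -0.050 to 0.11, Grin3b from -0.077 to 0.19, Polq from -0.59 to 0.43, Sav1 from -0.039 to 0.11 and Kiaa0408L from -0.11 to 0.024. Of 928 list medians under an alternative, 911 moved by less than 1 SD between animals, and the Hox list had no member to test in 2 fits. The GABA receptor median ran from -0.29 to -0.03 over the 31 fits, that of cortex and hippocampus from 0.06 to 0.28 and that of oxidative phosphorylation from -0.01 to 0.10.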
